A study of Mus musculus with 2 samples.

Results

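The genes described are 36 genes of glycolysis and the pentose phosphate pathway. They were taken by symbol from the 24421 symbols in the deposited expression values, and every one of the 36 symbols was found. They comprised 27 genes of glucose and lactate transport, glycolysis and its control by fructose 2,6-bisphosphate, and 9 genes of the pentose phosphate pathway and of phosphoribosyl pyrophosphate (PRPP) synthesis. RNA was measured by bulk RNA-seq in granulocyte-monocyte progenitors (GMPs), the bone marrow (BM) precursors of neutrophils and monocytes, sorted by flow cytometry. One group was female non-tumor-bearing mice (NTB-GMP) and the other was female mice with orthotopic mammary tumors of 4T1, a mouse carcinoma cell line (4T1-GMP). Total RNA was extracted with TRIzol, and each group had 1 library. The labels give both groups an F1 semi-syngeneic H-2b/d background, whereas the study's methods describe 4T1 implantation into BALB/c mice. The methods give mice of 8 to 12 weeks of age for all experiments. The interval after implantation and the number of mice per library are not stated for these libraries. The comparison asked which genes of glucose breakdown differed in RNA level between GMPs of tumor-bearing and control mice.

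Glycolysis splits glucose into pyruvate in the cytosol and yields ATP and NADH. The pentose phosphate pathway branches off at glucose 6-phosphate. Its oxidative arm makes NADPH, which neutrophils use for the respiratory burst and all cells use for reductive synthesis, and its non-oxidative arm interconverts sugar phosphates and delivers ribose 5-phosphate for nucleotides. Mature neutrophils draw much of their ATP from glycolysis, and many steps are carried by isoenzymes encoded by separate genes.

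Values are RPKM, reads divided by gene length and library size. Ratios of 4T1-GMP over NTB-GMP are on the log2(RPKM + 0.1) scale, which understates differences of low genes, and were read for 10378 genes, those whose RPKM averaged at least 1 over the libraries. With 1 library per group there was no replicate check and no test, so a gene was counted as higher or lower by a rule of size, a ratio of at least 1.5 times. The intervals given are exact binomial (Clopper-Pearson) at 95% and were computed from each gene's reads. They cover counting error only, because 1 library per group holds no spread between mice or preparations. PCR reads without molecular identifiers are not independent molecules, which the intervals do not allow for. Read numbers were recovered from the digits of the RPKM and are lower bounds, so intervals from them can be too wide. An interval that holds 0 might not do so with all reads. The library sizes behind the RPKM were 10180365 in NTB-GMP and 30016263 in 4T1-GMP. Reads of Rn45s, the ribosomal RNA precursor, equaled 17.0% and 6.98% of them. These sizes are not whole numbers, and their ratio lay -0.002 log2 units from TMM, a scaling from trimmed gene ratios. Leaving Rn45s out of the TMM scaling also gave -0.002. Subtracting Rn45s reads from both library sizes instead moved every log2 ratio by -0.16 before the pseudocount. The median over all compared genes went from 0.05 to -0.11. This is a check on scale, and values are also given on that scale where it matters.

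Most of the 36 genes had more RNA in 4T1-GMP. Of the 34 compared genes, 26 (76.5%) were higher in 4T1-GMP, beside 54.7% of all compared genes, and 8 were lower. The median log2 ratio was 0.48, beside 0.05 over all compared genes, which had quartiles of -0.26 and 0.32. A ratio of at least 1.5 times upward was found for 12 of the 34, or 35.3%, beside 9.80% of all compared genes. None of the 34 was lower by at least 1.5 times, beside 11.6% of all compared genes. The 12 were the lactate carriers Slc16a1 and Slc16a3, the glycolytic enzymes Aldoa, Tpi1, Pgk1, Eno1 and Ldha, the bifunctional enzymes Pfkfb1 and Pfkfb4, and the pentose phosphate enzymes G6pdx, Pgd and Rpe. Without Rn45s in the library sizes, the 26 genes were still higher, beside 39.2% of all compared genes. On that scale 6 passed upward (Slc16a3, Aldoa, Pfkfb4, Eno1, Pgd and Rpe) and 3 passed downward (Hk3, Pfkm and Pfkfb2), beside 5.73% and 17.0% of all compared genes. With TMM recomputed without Rn45s, 12 passed upward and 0 downward, beside 9.74% and 11.7%. After quantile normalization 7 passed upward and 1 downward (Hk3), beside 9.48% and 10.3%. The 7 were Slc16a3, Pfkfb1, Pfkfb4, Eno1 and Rpe from the 12, and Slc2a1 and Slc2a3 from outside them. In bulk RNA, a change in the cells that make up the sorted population and a change in RNA per cell cannot be told apart.

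Highly expressed genes as a class were shifted upward in these libraries. Among the 565 genes whose RPKM averaged at least 100, a class set after the data were seen, the median log2 ratio was 0.24, 80.0% were higher in 4T1-GMP, 12.9% were higher by at least 1.5 times and 3.36% were lower by at least 1.5 times. Of the 36 genes, 11 belong to this class, all 11 were higher, 5 were higher by at least 1.5 times and none was lower. The 11 are Gpi1, Aldoa, Tpi1, Gapdh, Pgk1, Pgam1, Pkm, Ldha, Pgd, Tkt and Taldo1. The 5 past the fold were Aldoa, Tpi1, Pgk1, Ldha and Pgd. After quantile normalization their log2 ratios were 0.50, 0.33, 0.43, 0.45 and 0.52, all under the 1.5-fold rule.

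**Figure D1:**
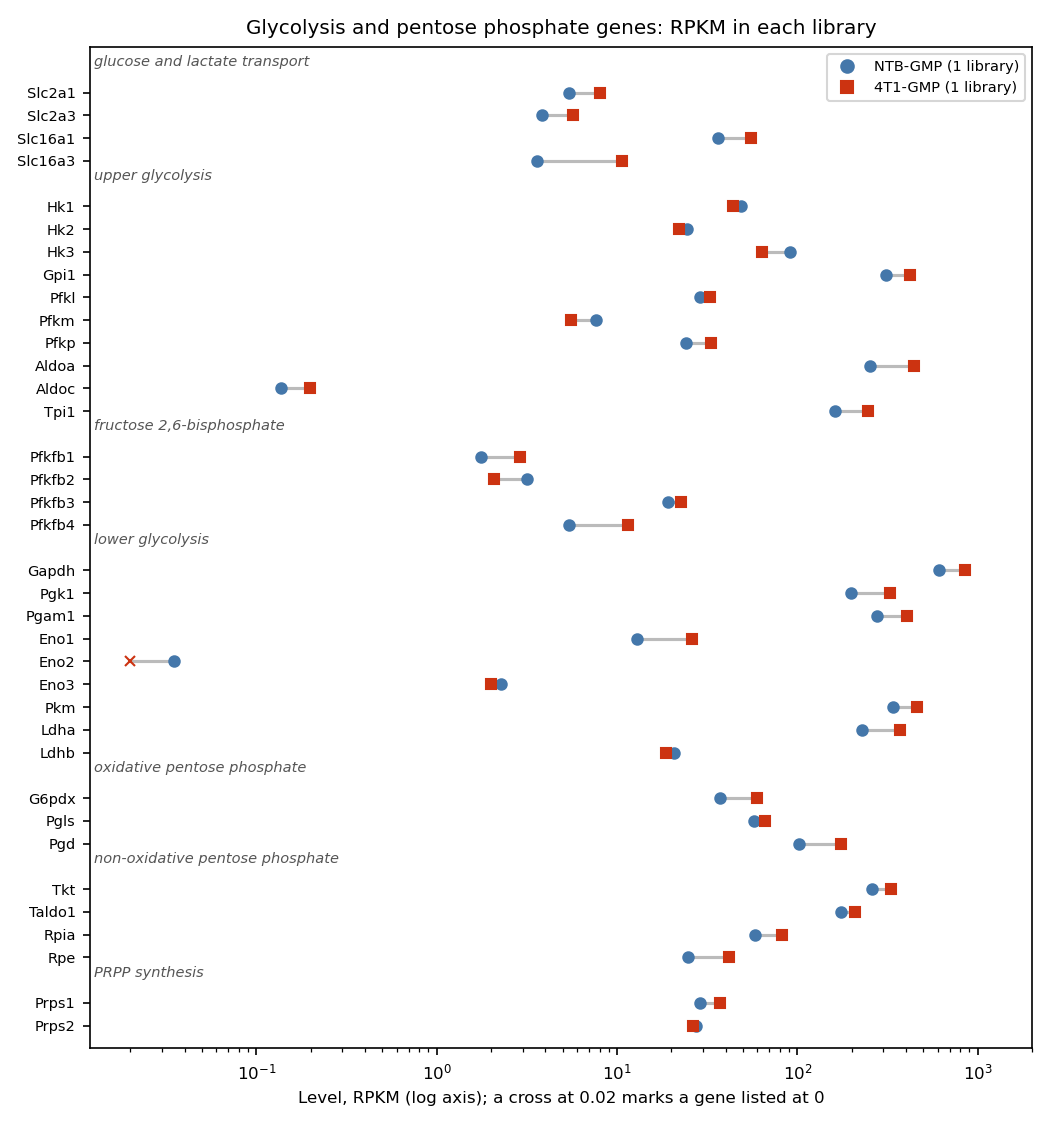
RPKM of the 36 genes on a log axis, grouped by role, with 1 circle for the NTB-GMP library and 1 square for the 4T1-GMP library. The gray line joins the 2 libraries and is no error bar. Gapdh is the most abundant gene at 609 and 853 RPKM, and the hexokinase squares lie left of their circles.

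The sorted cells were checked against marker genes of GMPs and of other cells that the gate could hold. Of 10 GMP markers, all 10 were among the compared genes, and their summed level was 10662 RPKM in NTB-GMP and 16332 in 4T1-GMP, with 4 higher and 3 lower by at least 1.5 times. Named after their values were seen, the 4 were the granule proteases Elane, Prtn3 and Ctsg and the membrane protein gene Ms4a3. The 3 were Kit (78.5 and 49.1 RPKM), Cd34 (153.8 and 59.4 RPKM) and Fcgr3 (53.1 and 28.6 RPKM), of which Kit and Fcgr3 encode surface proteins stained to sort GMPs. Mpo, the myeloperoxidase of primary granules, stood at 5163 and 5625 RPKM. All 14 markers of maturing neutrophils were higher in 4T1-GMP (13 without Rn45s in the library sizes), 13 by at least 1.5 times, and their sum was 524 RPKM in NTB-GMP and 4086 in 4T1-GMP. S100a9, an abundant neutrophil calcium-binding protein, stood at 189 and 1974 RPKM. Each of the 10 compared monocyte and dendritic cell markers of 12 listed was lower by at least 1.5 times, with sums of 265 and 72.6 RPKM. Sums were lower in 4T1-GMP for stem and early progenitor markers (62.1 and 23.4 RPKM, Ly6a at 0 in NTB-GMP). Of the 4 compared stem markers 1 was higher, Hoxa9 at 10.1 and 10.5 RPKM. Erythroid sums were also lower (9.66 and 1.25 RPKM, Hbb-bt and Hba-a1 at 0 in both libraries, Alas2 in 4T1-GMP). Epithelial markers, which 4T1 cells would carry, summed to 18.3 RPKM in NTB-GMP and 10.1 in 4T1-GMP, with Epcam, Krt14 and Krt19 at 0 in both. Most of these sums came from Krt18 (12.8 and 8.90 RPKM) and Cdh1 (5.36 and 1.04 RPKM). Hoxa9, Krt18 and Cdh1 were named after their values were seen. The part of these marker differences in the results for glycolysis and pentose phosphate genes was not tested.

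Promoter sequence is shown for the 4 genes with the largest ratios, Slc16a3, Pfkfb4, Eno1 and Aldoa, which are described with their values further on. The windows hold the 250 bases before an annotated transcription start on the gene's own strand, from RefSeq, build GRCm38.p6. The gene spans given with the values cover all RefSeq models of a gene, so each of the 4 windows lies inside the span of its gene. Capitals mark ACGTG or GCGTG, the core letters of the hypoxia response element, or their reverse complements. The Slc16a3 window is chr11:120948817-120949066 on the plus strand, with 2 matches. The Pfkfb4 window is chr9:108991652-108991901 on the plus strand, with 1 match. The Eno1 window is chr4:150236974-150237223 on the plus strand, with 2 matches. The Aldoa window is chr7:126799179-126799428 on the minus strand, with 1 match. The sequence table lists 1 start each for Slc16a3 and Pfkfb4 and 3 each for Eno1 and Aldoa, of which the one farthest downstream is shown.
Slc16a3: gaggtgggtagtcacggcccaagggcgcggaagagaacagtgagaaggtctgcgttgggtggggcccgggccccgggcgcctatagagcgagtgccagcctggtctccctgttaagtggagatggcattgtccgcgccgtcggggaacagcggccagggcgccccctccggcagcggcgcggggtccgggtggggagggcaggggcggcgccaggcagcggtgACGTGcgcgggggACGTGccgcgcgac
Pfkfb4: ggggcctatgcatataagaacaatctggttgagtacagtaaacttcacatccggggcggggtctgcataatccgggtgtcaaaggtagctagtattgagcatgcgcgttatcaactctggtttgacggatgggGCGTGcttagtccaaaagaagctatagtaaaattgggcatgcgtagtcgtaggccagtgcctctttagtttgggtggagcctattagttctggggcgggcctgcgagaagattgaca
Eno1: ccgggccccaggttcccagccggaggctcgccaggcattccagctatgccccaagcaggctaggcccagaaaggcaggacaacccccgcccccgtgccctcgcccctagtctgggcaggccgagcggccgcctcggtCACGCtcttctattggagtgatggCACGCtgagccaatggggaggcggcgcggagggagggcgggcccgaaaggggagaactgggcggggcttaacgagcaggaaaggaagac
Aldoa: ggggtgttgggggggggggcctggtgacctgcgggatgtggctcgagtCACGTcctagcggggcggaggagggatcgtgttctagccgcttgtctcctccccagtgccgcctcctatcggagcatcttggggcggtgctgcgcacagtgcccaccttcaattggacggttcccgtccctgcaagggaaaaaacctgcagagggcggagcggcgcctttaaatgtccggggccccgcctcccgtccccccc

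These letters were common in promoters of expressed genes. Searched on both strands in windows of 300 bases, from 250 before to 50 after each start, ACGTG or GCGTG was found in 43.8% of all 32851 windows, in 63.3% of the 10126 windows of compared genes and in 41 of the 53 windows (77.4%) of the 35 matched genes of the set. Slc2a3 was not matched. The letters were found in 33 of 43 glycolysis windows (76.7%) and in 8 of 10 pentose phosphate windows (80.0%). No window of Gpi1, Tpi1, Rpe or Eno2 held them. Tpi1 and Rpe were the only genes without them among the 12 higher by at least 1.5 times. Each of the 8 compared genes with lower values in 4T1-GMP, such as Hk3 and Pfkm, also had a window that held them. CACGTG, the E-box bound by MYC and by MLX-containing dimers, overlaps ACGTG and was found in 5 of 53 windows (9.43%), 1 each of Slc16a1, Ldha, Pfkm, Pfkfb2 and Pfkfb3, beside 10.5% of the windows of compared genes. TGACNNNGC, the core of the antioxidant response element, was found in 5 of 53 windows (9.43%), beside 14.5%, including 1 window each of G6pdx and Pgd. A match is a description of these letters and not a site.

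All 4 transport genes of the set were higher in 4T1-GMP, while carriers outside the set, given further on, went in both directions. Slc2a1 encodes GLUT1, the widely expressed basal glucose carrier, and stood at 5.42 RPKM in NTB-GMP and 8.07 in 4T1-GMP, a log2 ratio of 0.56 (interval 0.31 to 0.85). Slc2a3 encodes GLUT3, a high-affinity glucose carrier, and stood at 3.82 and 5.73 RPKM, a log2 ratio of 0.57 (0.33 to 0.85). Both were just under the 1.5-fold rule, and their proportion was held: Slc2a1 was 58.7% of the summed glucose carrier level in NTB-GMP and 58.5% in 4T1-GMP, and the shift of the pair was -0.01 on the log2 scale (-0.38 to 0.35). Slc16a1 encodes MCT1, a proton-coupled lactate and pyruvate carrier, and stood at 36.3 and 55.6 RPKM, a log2 ratio of 0.62 (0.54 to 0.70). Slc16a3 encodes MCT4, the lactate exporter of strongly glycolytic cells, and stood at 3.58 and 10.7 RPKM. Its log2 ratio of 1.55 (1.27 to 1.90), or 2.93-fold, was the highest of the 34 genes. It rested on at least 94 reads in NTB-GMP and 827 in 4T1-GMP, from a gene at chr11:120948484-120959000. Slc16a1 was the more abundant of the pair in both libraries, 10.1 times the level of Slc16a3 in NTB-GMP and 5.20 times in 4T1-GMP, a shift of -0.96 (-1.28 to -0.64).

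Hexokinase was the exception among the steps of the pathway. Hk1, the widely expressed form bound to mitochondria, stood at 49.0 RPKM in NTB-GMP and 44.0 in 4T1-GMP, a log2 ratio of -0.15 (-0.22 to -0.08). Hk2, the inducible form, stood at 24.6 and 22.0 RPKM, a log2 ratio of -0.16 (-0.25 to -0.07). Hk3, the form typical of myeloid cells, was the most abundant in both libraries, at 90.8 and 63.7 RPKM, and had a log2 ratio of -0.51 (-0.57 to -0.45). None of the 3 passed the 1.5-fold rule on the deposited scale, and Hk3 passed it downward without Rn45s in the library sizes (-0.67) and with quantile normalization (-0.74). The summed hexokinase level was 164 RPKM in NTB-GMP and 129.7 in 4T1-GMP, a log2 ratio of -0.34. It was the single one of 22 steps with a lower sum in 4T1-GMP, and it was also lower with Rn45s left out (-0.50), centered on the median gene (-0.39) and after quantile normalization (-0.54). Hk1 and Hk2 kept their proportion at 1.99 and 2.00, a shift of 0.01 (-0.11 to 0.12), while Hk3 went from 55.2% to 49.1% of the sum, with a shift of Hk1 against Hk3 of 0.36 (0.26 to 0.45).

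The steps from glucose 6-phosphate to the triose phosphates differed by isoenzyme. Gpi1, the isomerase that makes fructose 6-phosphate, stood at 310.2 and 423.2 RPKM, a log2 ratio of 0.45. Phosphofructokinase, the committing step, is built from liver, muscle and platelet subunits. The liver subunit Pfkl stood at 28.7 and 32.8 RPKM, a log2 ratio of 0.19 (0.09 to 0.29). The platelet subunit Pfkp stood at 24.0 and 33.4 RPKM, a log2 ratio of 0.47 (0.38 to 0.57). The muscle subunit Pfkm stood at 7.60 and 5.54 RPKM, a log2 ratio of -0.45 (-0.68 to -0.23). The subunits therefore separated: Pfkp went from 39.8% to 46.5% of the phosphofructokinase sum, Pfkl went from 47.6% to 45.7%, and Pfkm went from 12.6% to 7.72%. The shift of Pfkm against Pfkp was -0.93 (-1.17 to -0.69), and that of Pfkl against Pfkp was -0.28 (-0.42 to -0.14). Aldoa, the aldolase of muscle and blood cells, stood at 253 and 441 RPKM, a log2 ratio of 0.80 (0.74 to 0.87) or 1.74-fold, from a gene at chr7:126795234-126800994. Aldoc, the brain aldolase, stood at 0.137 and 0.197 RPKM on at least 4 and 17 reads and was too low to compare, so that Aldoa was 99.95% and 99.96% of the aldolase sum. Tpi1, which interconverts the triose phosphates, stood at 163 and 246 RPKM, a log2 ratio of 0.60 (0.54 to 0.66).

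Genes of the bifunctional enzymes that make and remove fructose 2,6-bisphosphate, the main activator of phosphofructokinase, did not share a direction. Pfkfb3, whose enzyme has high kinase and low phosphatase activity, was the most abundant at 19.2 and 22.5 RPKM, a log2 ratio of 0.23 (0.13 to 0.33). Pfkfb4, an isoform known to be induced by hypoxia, stood at 5.41 and 11.4 RPKM, a log2 ratio of 1.07 (0.86 to 1.31), from a gene at chr9:108988272-109032236. Pfkfb4 and Slc16a3 were the 2 genes of the set that were at least 2 times higher, beside 3.25% of all compared genes, and none was at least 2 times lower, beside 4.92%. Pfkfb1, the liver and muscle isoform, stood at 1.75 and 2.89 RPKM, a log2 ratio of 0.69 with a wide interval (0.16 to 1.33) from at least 31 and 151 reads. Pfkfb2, the heart isoform, stood at 3.15 and 2.08 RPKM, a log2 ratio of -0.58 (-0.95 to -0.25), which lies just inside the 1.5-fold rule and passes it with a pseudocount of 0.01 (-0.60). The balance among the 4 isoforms differed accordingly. Pfkfb4 went from 18.3% to 29.4% of the summed level, while Pfkfb3 went from 65.0% to 57.8% and Pfkfb2 from 10.7% to 5.33%. The shift of Pfkfb3 against Pfkfb4 was -0.85 (-1.09 to -0.60), and that of Pfkfb2 against Pfkfb4 was -1.68 (-2.09 to -1.28).

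**Figure D2:**
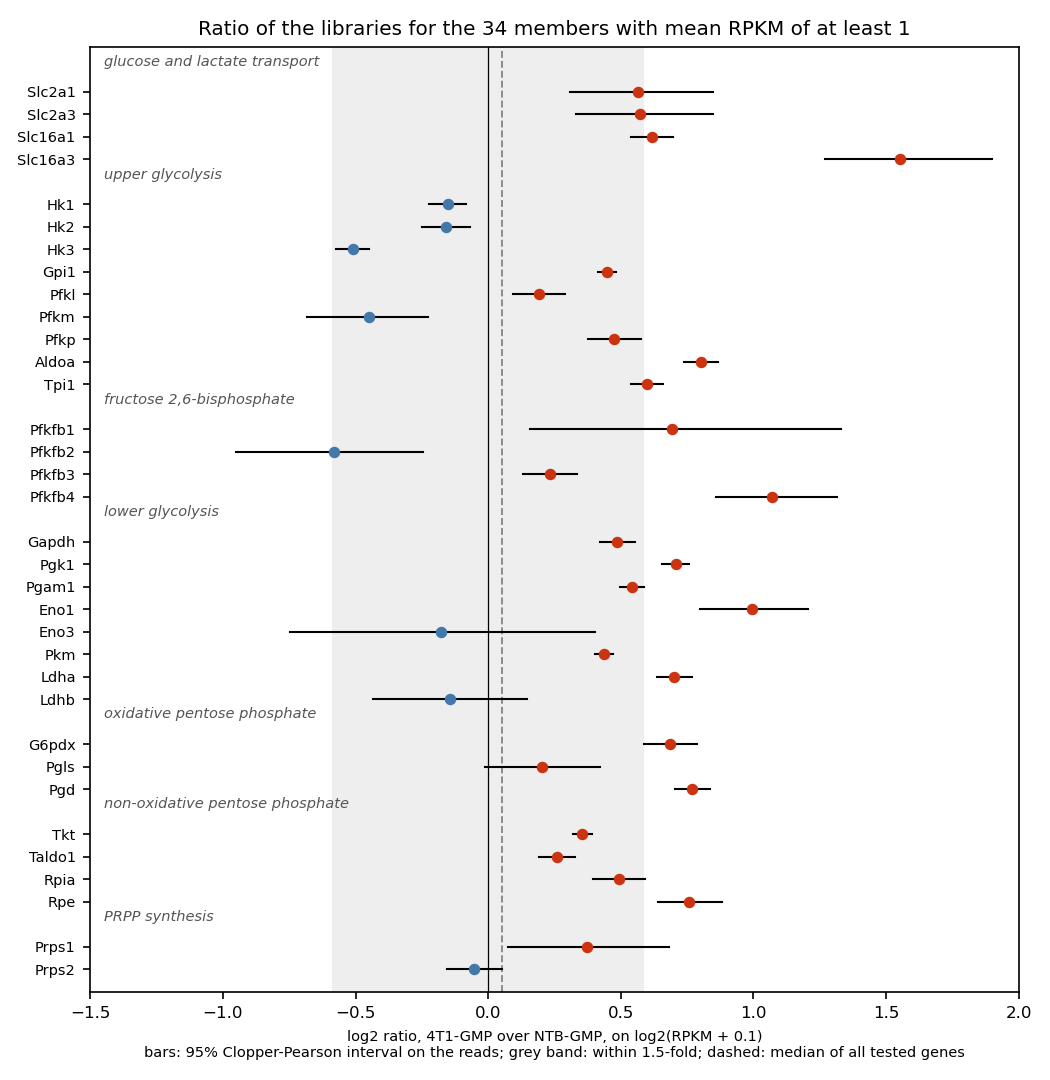
Log2 ratio of 4T1-GMP over NTB-GMP for the 34 compared genes, with 95% counting intervals as bars, the 1.5-fold band in gray and the median of all compared genes dashed. Points in red are above 0 and points in blue below 0 on the deposited scale (Eno3 changes sign with quantile normalization). Slc16a3 at 1.55, Pfkfb4 at 1.07 and Eno1 at 1.00 lie farthest right, and the blue points include all 3 hexokinases.

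The lower part of glycolysis, where ATP and pyruvate are made, was higher at every step. Gapdh, the NADH-forming dehydrogenase that is often used as a reference gene, stood at 609 and 853 RPKM, a log2 ratio of 0.49 (0.42 to 0.55). Pgk1, the first ATP-forming enzyme, stood at 199 and 326 RPKM, a log2 ratio of 0.71 (0.66 to 0.76). Pgam1, the mutase that follows, stood at 278 and 405 RPKM, a log2 ratio of 0.54. Of these, only Pgk1 passed the 1.5-fold rule. Pkm, the pyruvate kinase gene of most tissues other than liver and red cells, stood at 339 and 458 RPKM, a log2 ratio of 0.44 (0.40 to 0.47). Values per gene cannot separate the M1 and M2 splice forms of Pkm.

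Enolase carries an uncertainty from a near copy. Eno1, the widely expressed enolase, stood at 12.9 and 25.9 RPKM, a log2 ratio of 1.00 (0.80 to 1.21), from a gene at chr4:150236708-150248879. This level is far below the 278 and 405 RPKM of Pgam1 and the 339 and 458 RPKM of Pkm, the neighboring steps. Eno1b, an intronless near copy, was listed at 37.5 and 112.6 RPKM, a log2 ratio of 1.58, and reads that match both genes cannot be assigned with certainty by counting. The sum of Eno1 and Eno1b was 50.4 RPKM in NTB-GMP and 138 in 4T1-GMP, a log2 ratio of 1.46, so both the single and the summed value were higher by more than 1.5 times, while the level of Eno1 itself is uncertain. Eno3, the muscle enolase, stood at 2.27 and 1.99 RPKM, a log2 ratio of -0.18 with an interval of -0.75 to 0.40, and was higher with quantile normalization. Eno2, the neuronal enolase, had at least 1 read in NTB-GMP (0.0351 RPKM) and was listed at 0 in 4T1-GMP. Gapdh, Pgk1, Pgam1 and Ldha are among the genes that also have processed pseudogenes, whose share of their reads was not measured here.

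Lactate dehydrogenase tilted further toward its A subunit. Ldha, the subunit that favors lactate formation, stood at 227 and 369 RPKM, a log2 ratio of 0.70 (0.63 to 0.77) or 1.63-fold. Ldhb, the subunit of the heart-type enzyme, stood at 20.6 and 18.7 RPKM, a log2 ratio of -0.15 with an interval of -0.43 to 0.15. The ratio of Ldha to Ldhb was 10.99 in NTB-GMP and 19.8 in 4T1-GMP, a shift of 0.85 (0.56 to 1.14), and Ldhb went from 8.34% to 4.81% of the summed level. A ratio of genes within 1 library does not depend on its size. Hence this shift, and those of the lactate carriers, hexokinases, phosphofructokinases and Pfkfb genes, do not depend on whether Rn45s is counted in the library sizes.

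**Figure D3:**
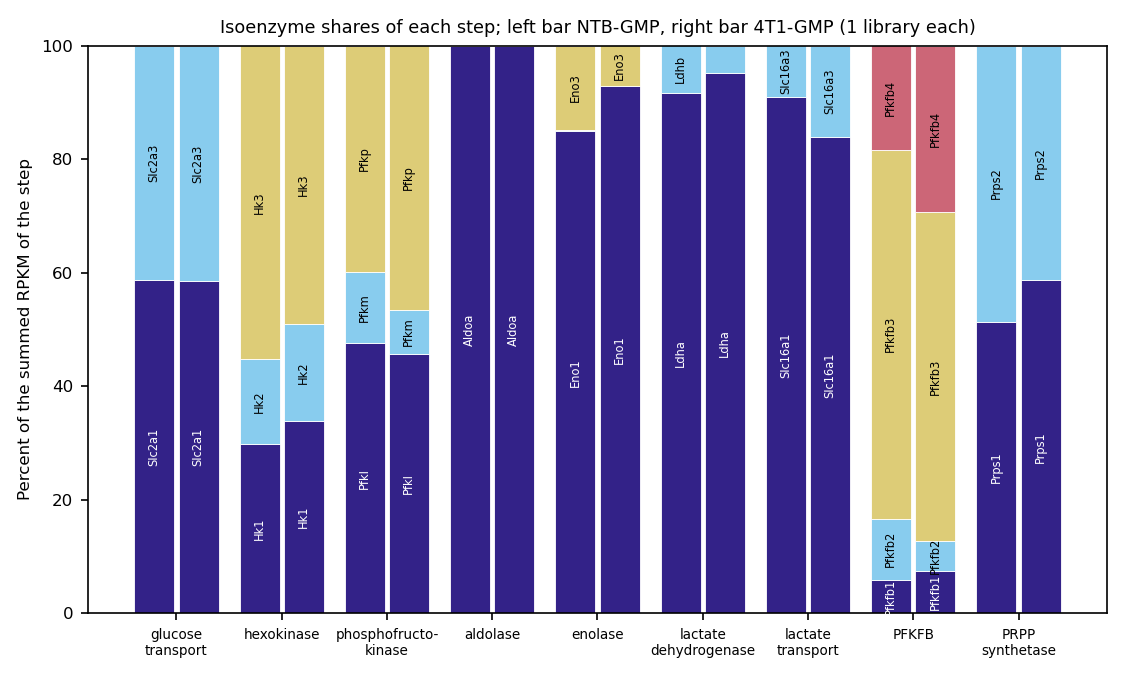
Share of each isoenzyme in the summed RPKM of its step, with the NTB-GMP library as the left bar and the 4T1-GMP library as the right bar of each pair, without error bars. The Slc16a3 share goes from 8.99% to 16.1%, Pfkfb4 from 18.3% to 29.4%, and Hk3 from 55.2% to 49.1%, while the glucose carriers keep their shares.

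The oxidative arm of the pentose phosphate pathway was higher at the enzymes that form NADPH. G6pdx, the X-linked glucose 6-phosphate dehydrogenase that sets the entry into the pathway, stood at 37.2 RPKM in NTB-GMP and 59.9 in 4T1-GMP, a log2 ratio of 0.69 (0.59 to 0.79) or 1.61-fold. Pgd, the 6-phosphogluconate dehydrogenase, stood at 102 and 174 RPKM, a log2 ratio of 0.77 (0.71 to 0.84) or 1.70-fold. Pgls, the lactonase between them, which forms no NADPH, stood at 57.6 and 66.3 RPKM, a log2 ratio of 0.20 with an interval that holds 0 (-0.01 to 0.42). Without Rn45s in the library sizes, Pgd (0.61) passed the 1.5-fold rule and G6pdx (0.52) did not. After quantile normalization neither passed it, at 0.52 for Pgd and 0.50 for G6pdx.

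All 4 genes of the non-oxidative arm were higher, 1 of them by at least 1.5 times. Rpe, the epimerase that leads ribulose 5-phosphate toward xylulose 5-phosphate, stood at 24.8 and 42.03 RPKM, a log2 ratio of 0.76 (0.64 to 0.88). Rpia, the isomerase that makes ribose 5-phosphate, stood at 58.4 and 82.2 RPKM, a log2 ratio of 0.49 (0.40 to 0.59). The carbon-shuffling enzymes were more abundant and less different. Tkt, the transketolase, stood at 258 and 330.0 RPKM, a log2 ratio of 0.36 (0.32 to 0.39). Taldo1, the transaldolase, stood at 175 and 209 RPKM, a log2 ratio of 0.26 (0.19 to 0.33).

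PRPP synthetase, which activates ribose 5-phosphate for purine and pyrimidine synthesis, differed little. Prps1 stood at 28.8 and 37.4 RPKM, a log2 ratio of 0.37 (0.08 to 0.68). Prps2 stood at 27.3 and 26.3 RPKM, a log2 ratio of -0.05 with an interval that holds 0 (-0.16 to 0.05). The summed level went from 56.1 to 63.7 RPKM, a log2 ratio of 0.18, or 0.02 without Rn45s in the library sizes, and Prps1 went from 51.4% to 58.7% of it, a shift of 0.43 (0.11 to 0.74). Prps1l3, a near copy of Prps1, was listed at 27.9 and 28.7 RPKM, a log2 ratio of 0.04, so the reads of Prps1 are uncertain to that extent.

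The roles differed in median and in how many of their genes were higher. Within the set, all compared genes of transport (4 of 4), the oxidative arm (3 of 3) and the non-oxidative arm (4 of 4) were higher. The counts were 5 of 9 in upper glycolysis, 3 of 4 Pfkfb genes, 6 of 8 in lower glycolysis (7 after quantile normalization) and 1 of 2 PRPP synthetase genes. Of all compared genes, 54.7% were higher. The median log2 ratio was 0.59 for the 4 transport genes, 0.19 for 9 upper glycolysis genes, 0.46 for the 4 Pfkfb genes, 0.51 for 8 lower glycolysis genes, 0.69 for 3 oxidative pentose phosphate genes, 0.42 for 4 non-oxidative genes and 0.16 for the 2 PRPP synthetase genes. Over all 25 compared genes of transport and glycolysis it was 0.49, with 18 higher and 9 higher by at least 1.5 times. Over the 9 pentose phosphate and PRPP genes it was 0.37, with 8 higher and 3 higher by at least 1.5 times. The counts past the fold upward were 9 of 25 and 3 of 9, beside 9.80% of all compared genes. They were 4 and 2 with Rn45s left out, beside 5.73%, and 6 and 1 after quantile normalization, beside 9.48%. The difference between the pathways was not tested. Computed from lower-bound reads, 25 of the 34 intervals lay above 0, 5 below 0 (Hk1, Hk2, Hk3, Pfkm and Pfkfb2) and 4 across 0 (Eno3, Ldhb, Pgls and Prps2). The matching shares of all compared genes were not counted, so these counts do not set the genes apart from others.

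**Figure D4:**
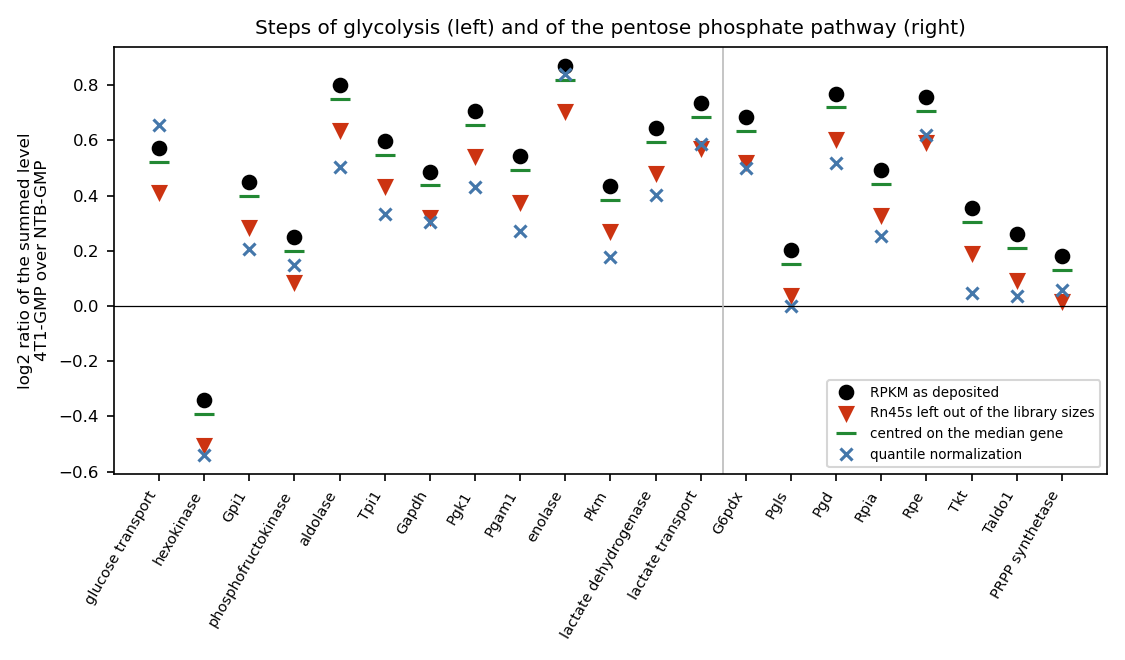
Log2 ratio of the summed RPKM at each step of glycolysis (left of the line) and the pentose phosphate pathway (right), under the deposited scale and 3 other scalings, 1 library per group and no error bars. Hexokinase lies below 0 under all 4 (-0.34 as deposited), and the other 20 steps shown lie above 0 under all 4, with Pgls at 0.00 after quantile normalization.

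Genes adjoining the set were read from 6 lists. Of 23 other isoenzymes and transporters, 8 reached a mean RPKM of 1, with a median log2 ratio of 0.25, 3 higher and 2 lower by at least 1.5 times, beside 9.80% and 11.6% of all compared genes. None of these 5 passed the fold with a pseudocount of 1. With Rn45s left out, 1 passed upward and 2 downward, beside 5.73% and 17.0% of all compared genes. Slc2a6, a lysosomal hexose carrier, stood at 0.920 and 1.72 RPKM on at least 10 reads in NTB-GMP, and Adpgk, an ADP-dependent glucokinase, stood at 22.4 and 33.98 RPKM, a log2 ratio of 0.60. The carriers Slc2a8 (2.22 and 1.33 RPKM) and Slc2a9, a urate carrier (4.35 and 2.79 RPKM), had log2 ratios of -0.70 and -0.62. The 7 compared of 10 other pentose phosphate genes had a median of 0.24, and 1 of the 7 passed upward, beside 9.80% of all compared genes. It was Rbks, the ribokinase, at 4.60 and 8.61 RPKM (0.89). H6pd, the endoplasmic reticulum counterpart of G6pdx, stood at 17.0 and 22.0 RPKM (0.37). Both lists had a median between that of the set, 0.48, and that of all compared genes, 0.05.

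Opposing reactions and the entry of pyruvate into mitochondria were read in the same way. Of 9 genes of gluconeogenesis and fructose 2,6-bisphosphate removal, 6 were compared, with a median of 0.18. None passed the fold on the deposited scale, beside 9.80% upward and 11.6% downward of all compared genes. With Rn45s left out, 3 of the 6 were higher and 1 passed downward, beside 39.2% and 17.0% of all compared genes. The largest difference, named after its values were seen, was that of Pck2, the mitochondrial phosphoenolpyruvate carboxykinase, at 17.0 and 12.2 RPKM (-0.47, interval -0.62 to -0.33). Fbp1, fructose bisphosphatase, stood at 7.37 and 8.51 RPKM (0.21), and Tigar, which removes fructose 2,6-bisphosphate, at 3.74 and 4.64 RPKM (0.31). Of 14 genes of pyruvate entry into mitochondria, 13 were compared, with a median of 0.27. Of the 13, 2 passed upward and 2 downward, again beside 9.80% and 11.6%. Mpc1, a subunit of the mitochondrial pyruvate carrier, stood at 43.0 and 82.9 RPKM (0.94), and Dlat, the E2 subunit of pyruvate dehydrogenase, at 14.2 and 22.6 RPKM (0.66). Pdk2, a kinase that inactivates pyruvate dehydrogenase, stood at 2.78 and 1.30 RPKM (-1.04), and Pdp2, a phosphatase that reactivates it, at 8.14 and 5.31 RPKM (-0.61).

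Of 18 genes of glycogen and galactose use, 14 were compared. All 14 were higher on the deposited scale, beside 54.7% of all compared genes. The number higher was 10 with Rn45s left out, 12 centered on the median gene and 11 after quantile normalization, beside 39.2%, 50% and 50.5%. The median of the 14 was 0.38, and 3 passed the 1.5-fold rule upward, beside 9.80% of all compared genes. These included Gyg, the glycogenin that primes glycogen, at 48.6 and 87.0 RPKM (0.84), and Ppp1r3d, a glycogen-targeting subunit of protein phosphatase 1, at 1.54 and 3.97 RPKM (1.31). Regulators of glycolysis genes showed no common direction: 16 of 18 were compared, with a median of 0.03. Of the 16, 2 passed upward and 1 downward, beside 9.80% and 11.6% of all compared genes. Hif1a, the oxygen-regulated subunit of HIF-1, stood at 24.7 and 42.9 RPKM (0.79). Mlx, the partner of the glucose-sensing MondoA and ChREBP factors, stood at 20.3 and 34.4 RPKM (0.76), while Mlxip, which encodes MondoA, stood at 14.4 and 8.65 RPKM (-0.73). Myc stood at 138 and 108 RPKM (-0.36), and Txnip, a MondoA target that limits glucose uptake, at 40.6 and 28.8 RPKM (-0.49), neither past the fold.

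**Figure D5:**
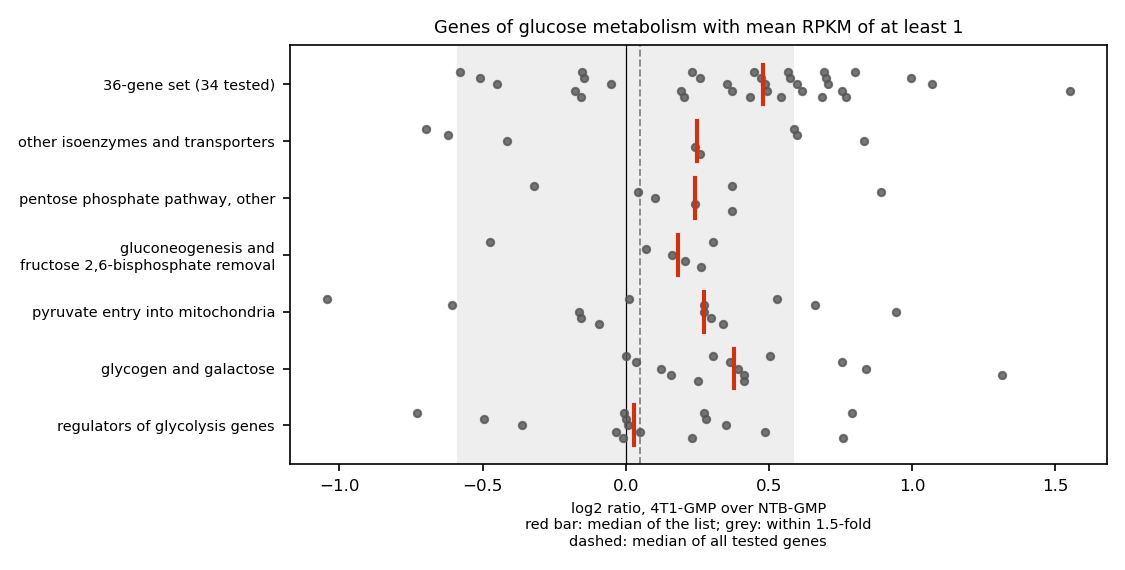
Log2 ratio of 4T1-GMP over NTB-GMP for the compared genes of the 36-gene set and in 6 lists of adjoining genes, 1 point per gene, with the median of each list as a red bar. The median of the set is 0.48, and those of the lists run from 0.03 (regulators) to 0.38 (glycogen and galactose) on the deposited scale. With Rn45s left out the median of the regulators is -0.13.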

How the data were processed

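Bulk RNA-seq of sorted mouse GMPs gave 1 library for NTB-GMP and 1 for 4T1-GMP, grouped by their titles. The authors deposited RPKM, reads divided by gene length and library size, for 24421 symbols per library. The submitters' processing notes name CASAVA 1.8.2, cutadapt 1.2.1, TopHat2 2.0.13, Picard 1.97, HTSeq 0.6.1, edgeR 3.12.1 and build mm10. The annotation, strand setting and handling of reads that match several genes are not given in the sources used here, so genes with near copies are uncertain.

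The 36 genes and all lists were chosen with earlier results of these data known. Log2 ratios used a pseudocount of 0.1, for genes whose RPKM averaged at least 1. A gene counted as higher or lower at 1.5-fold. With 1 library per group no test was made.

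Whole reads were recovered from the deposited RPKM for 14833 of 14833 symbols above 0 as lower bounds, at least 9486697 and 26353075 reads in all, by a procedure checked on simulated data. The library sizes behind the RPKM were 10180365 and 30016263, and their ratio lay -0.002 log2 units from a TMM scaling recomputed from the recovered reads. Intervals are 95% Clopper-Pearson for genes and log-normal for pairs of isoenzymes. Both rest on the lower-bound reads and can be too wide.

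Named from each adjoining list were the 2 largest differences past the fold in each direction, plus Hif1a, Myc, Txnip, Tigar, Fbp1, H6pd and Mpc1, and from marker lists the counts, sums, markers at 0 and, for GMPs and neutrophils, the most abundant gene. The result of 1 marker list is not reported here. Promoters came from RefSeq on GRCm38.p6, the assembly of mm10, for the 4 genes with the largest ratios. The alternatives were pseudocounts of 1 and 0.01, all symbols above 0, a minimum mean RPKM of 5, library sizes without Rn45s, centering on the median gene, quantile normalization, a fold of 2 and shares of reads. The recomputed TMM scalings were added after seeing the data. Computations used Python 3.11.15, numpy 2.4.6, pandas 2.3.3, scipy 1.17.1 and matplotlib 3.10.9.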

Additional observations from a re-analysis of the deposited data

How the results depend on the processing

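The number of genes of the set that were higher in 4T1-GMP was 26 of 34 as deposited. It was also 26 when Rn45s reads were subtracted from the library sizes and when ratios were centered. It was 27 after quantile normalization, 27 of 36 over all symbols above 0 and 24 of 30 at a minimum mean RPKM of 5. Both other pseudocounts gave 26, but a pseudocount cannot change the sign of a ratio, so that count could not move. Both TMM scalings gave 26 too, and their shift of -0.002 log2 units left little room for a change. The number at least 1.5 times higher, 12, was 6 with Rn45s left out, beside 5.73% of all compared genes. It was 7 after quantile normalization, beside 9.48%, and these included Slc2a1 and Slc2a3, which were not among the 12. At a fold of 2 it was 2, beside 3.25%. Under the other alternatives it lay between 10 and 12, beside 7.98% to 11.9%. The number at least 1.5 times lower, 0, was 1 with a pseudocount of 0.01 (Pfkfb2) and 3 with Rn45s left out, beside 12.1% and 17.0% of all compared genes. It was 1 with centering (Pfkfb2) and 1 after quantile normalization (Hk3), beside 13.1% and 10.3%. With Rn45s left out, the median log2 ratio was 0.32 for all members of the set, 0.32 for glycolysis and 0.21 for the pentose phosphate pathway. After quantile normalization these medians were 0.26, 0.30 and 0.24. Rn45s reads made up 17.0% of one library size and 6.98% of the other, so leaving them out shifts every ratio alike. The cause of the quantile differences was not tested. Of 467 values of single named genes under the alternatives, 61 moved beyond their counting interval, 1 changed sign (Eno3) and no gene past the fold was reversed. The 61 were 31 of 53 genes with Rn45s left out, 26 of 53 after quantile normalization and 4 of 53 with centering. Changing the minimum level leaves each ratio as it is, so those values could not move, and the TMM scalings differ by only -0.002 log2 units. Another pseudocount can move a value but cannot change its sign. Of 23 isoenzyme shares, 4 moved after quantile normalization and 7 as shares of reads not divided by length, with none reversed. No paired analysis was possible because there is 1 library per group, which also leaves no replicate to omit. Depth limits Pfkfb1 and Eno3, with under 40 recovered reads in NTB-GMP, and Aldoc and Eno2, which were not compared.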
